A study of Mus musculus with 12 samples.

Results

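Upk3b, Upk1b, Msln and Lhx9 were examined as a group of genes linked to the coelomic surface epithelium, the sheet of cells that covers the gonad. The platform annotation gave 11 probe sets to these 4 genes alone, 2 for Upk3b, 4 for Upk1b, 1 for Msln and 4 for Lhx9, out of 45037 probe sets and 18032 genes measured. Each gene was read from its brightest probe set, judged by the mean of all 12 arrays, and its other probe sets served as a check. RNA came from the genital ridges or testes of male mouse embryos at E13.5, E15.5 and E17.5, and the series compared the strains at each stage and successive stages within a strain, in a search for genes of testicular germ cell tumours. The tissue was taken from M19, the chromosome substitution strain 129.MOLF-Chr 19, which carries chromosome 19 of the MOLF strain on a 129 background, and from 129/Sv, called 129 here. Each strain and stage had 2 arrays, and no embryo received a treatment. The labels state that 40 pairs of testes were pooled for 2 arrays, so both arrays of a group may come from shared RNA, in which case the tests see technical spread and not the spread between embryos.

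In the mouse, the gonad arises as a thickening of the coelomic epithelium over the mesonephros, and cells that leave this layer contribute to the supporting and interstitial cells of the testis. Once the testis cords have formed, the layer remains as a flat surface epithelium, related to the mesothelium that lines the body cavity. UPK3B is a uroplakin, a membrane protein of the plaques of bladder urothelium that is also made by mesothelium. UPK1B is a tetraspanin and the partner of the UPK3 proteins in those plaques. Mesothelin, the product of Msln, is a glycoprotein tethered to the surface of mesothelial cells. LHX9 is a LIM homeodomain transcription factor that mice need to form a gonad.

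The bases upstream of the start of Upk3b and Lhx9 are shown as those of the members matched in the RefSeq promoter table of build GRCm38.p6, which was matched for these 2 of the 4 genes. Both probe sets of Upk3b had called falls and 1 of the 4 of Lhx9 a called rise. The Upk3b sequence lies at chr5:136038246-136038495 on the plus strand and the Lhx9 sequence at chr1:138842445-138842694 on the minus strand. Both read 5′ to 3′ towards the gene start, and capitals mark the motif matches.
Upk3b: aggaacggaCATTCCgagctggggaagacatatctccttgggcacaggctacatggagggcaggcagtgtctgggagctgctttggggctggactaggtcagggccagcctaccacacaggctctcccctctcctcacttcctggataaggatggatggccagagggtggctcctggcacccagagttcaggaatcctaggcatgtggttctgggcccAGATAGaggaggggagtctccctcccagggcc
Lhx9: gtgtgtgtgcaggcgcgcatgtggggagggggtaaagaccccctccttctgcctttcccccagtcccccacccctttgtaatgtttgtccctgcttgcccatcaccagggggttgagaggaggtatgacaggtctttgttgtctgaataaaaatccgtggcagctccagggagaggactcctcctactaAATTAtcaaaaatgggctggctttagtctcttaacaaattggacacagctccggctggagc
The GC content of these 250 bases was 60.8% for Upk3b and 53.6% for Lhx9. Motifs were searched on both strands and were chosen after the sequences had been seen. In Upk3b, the TEAD motif GGAATG was found in its reverse complement, beginning at position -241 from the gene start, and the GATA motif (AGATAA or AGATAG) at position -32. The same windows of all 32851 promoters held GGAATG in 12.6% and the GATA motif in 16.5%. In Lhx9, the LIM homeodomain core TAATT was found in its reverse complement at position -61, and 25.0% of all promoters held it. The longer LIM homeodomain motif TAATTA, which overlaps TAATT, was in neither sequence and in 4.84% of all promoters. The WT1 and EGR motif GCGTGGG (4.3% of all promoters) and the TATA box TATAAA (12.4%) were in neither sequence. A match describes the letters of this window and not a bound site.

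Group means of Amh, the anti-Müllerian hormone of Sertoli cells, ran from 10.21 to 12.4 on the log2 scale, those of Sox9, a Sertoli cell transcription factor, from 10.18 to 10.47, and those of Foxl2, a factor of the supporting cells of the ovary, from 9.0 to 9.42. No detection call was used, so the presence or absence of these markers was not tested. On 129 E13.5 replicate 1, the 3′ probe set for 18S ribosomal RNA stood at 10.31, against 7.39 to 9.0 on the other 11 arrays. The SD of the difference between the 2 arrays of that group was 0.38, against 0.161 to 0.292 in the other 5 groups. Both ends of the 18S range were 129 E15.5 arrays, with 9.0 on replicate 1 and 7.39 on replicate 2. The SD of 0.292 also belonged to 129 E15.5. Both 129 E15.5 arrays carried skin markers, with a summed linear signal of 10361 to 10649 over 7 genes, against 1818 to 1883 in M19 at E15.5. Skeletal muscle markers of 6 genes likewise summed to 5317 to 5365 in 129 at E15.5, against 1506 to 1604 in M19 at E15.5. E17.5 minus E13.5 does not use the 129 E15.5 arrays. Differences in 129 that use the E13.5 arrays are given again without replicate 1 where that changes a call. They are also given for the brightest probe set of each of the 4 genes, for Upk3b at the early step.

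Upk3b was lower at E15.5 than at E13.5 in both strains, with no further difference called between E15.5 and E17.5. At E13.5 its deposited signal was 10.41 and 10.42 in M19 and 10.55 and 10.54 in 129. At E15.5 it was 9.69 and 9.60 in M19 and 9.40 and 9.61 in 129. At E17.5 it was 9.58 and 9.63 in M19 and 9.43 and 9.70 in 129. All 8 later arrays lay below all 4 arrays of E13.5, and the later arrays of the strains and stages overlapped. The samples are whole organs, so fewer cells of a type and less RNA per cell cannot be told apart.

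E15.5 minus E13.5 was -0.77 in M19 (SE 0.12, 1.7-fold lower, adjusted p = 0.0037) and -1.04 in 129 (SE 0.12, 2.06-fold lower, adjusted p = 0.00055), by limma with Benjamini-Hochberg adjustment over all probe sets. Upk3b was the 1 member of the 4 that was lower in each strain, and none was higher. The share of all genes called lower at this step was 1.66% in M19 and 1.85% in 129, and the share called higher was 5.78% in M19 and 4.49% in 129. From E15.5 to E17.5 the difference was -0.04 in M19 (95% interval -0.31 to 0.23) and 0.06 in 129 (-0.21 to 0.33). E17.5 minus E13.5, which does not use the 129 E15.5 arrays, was -0.81 in M19 (adjusted p = 0.0018) and -0.98 in 129 (adjusted p = 0.00058). The share of all genes called over that span was 5.29% lower and 10.2% higher in M19, and 4.02% lower and 6.94% higher in 129. Between E15.5 and E17.5 none of the 4 genes was called by limma in either strain, and none had an unadjusted p under 0.05. There 1.8% of all genes were lower and 1.45% higher in M19, and 1.25% were lower and 1.18% higher in 129.

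Without 129 E13.5 replicate 1, E15.5 minus E13.5 of Upk3b in 129 was -1.03 with an adjusted p of 0.0036. Without M19 E13.5 replicate 2, the early difference in M19 was -0.76 with an adjusted p of 0.051, which ends that call. In 129, a fit of only the arrays compared gave the same -1.04 with an adjusted p of 0.054. Over the 12 fits that each left out 1 array, E17.5 minus E13.5 of Upk3b in 129 ran from -1.11 to -0.85.

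**Figure D1:**
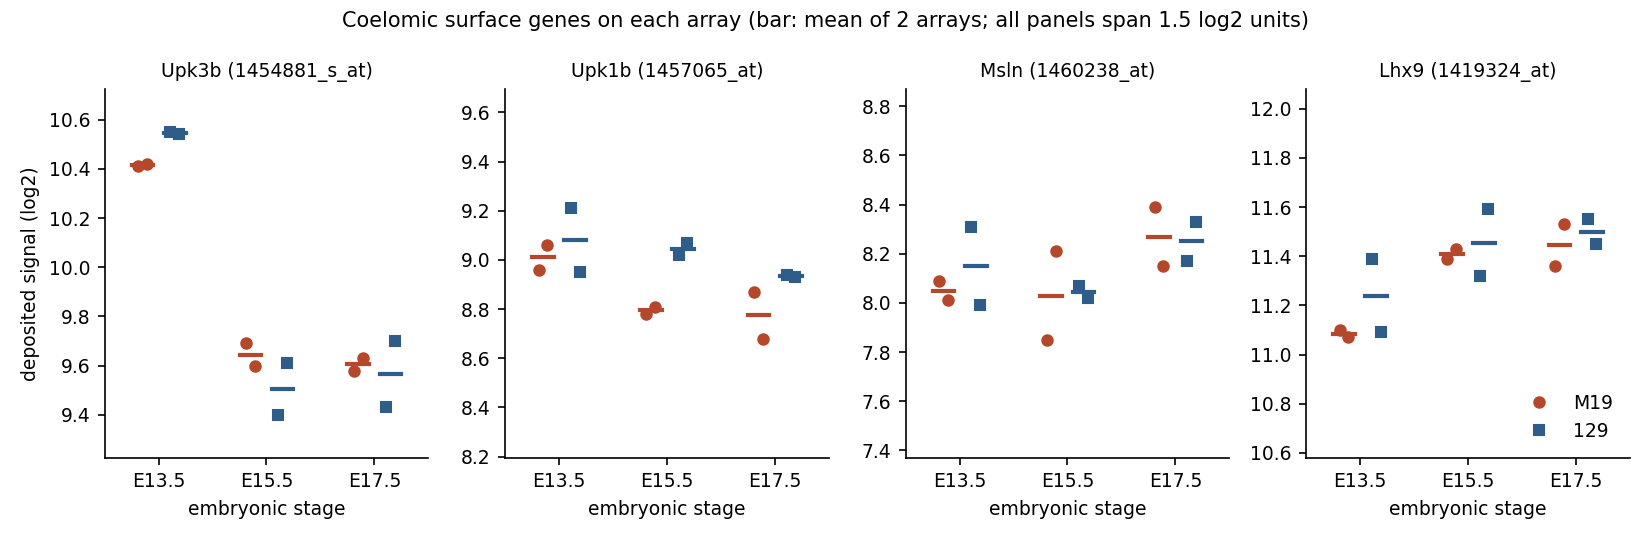
Deposited log2 signal of Upk3b, Upk1b, Msln and Lhx9 on each of the 12 arrays (vertical axis) at E13.5, E15.5 and E17.5, from the brightest probe set of each gene, with M19 as circles, 129 as squares and a bar at the mean of 2 arrays. Upk3b stands at 10.41 to 10.55 on the arrays of E13.5 and at 9.40 to 9.70 on all later arrays, while the arrays of Upk1b run from 8.68 to 9.21, those of Msln from 7.85 to 8.39 and those of Lhx9 from 11.07 to 11.59.

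The second Upk3b probe set, 1434237_at, was likewise highest at E13.5. It read 9.96 and 9.93 in M19 and 10.17 and 10.05 in 129 at E13.5, 9.30 and 9.31 in M19 and 9.14 and 9.17 in 129 at E15.5, and 9.35 and 9.45 in M19 and 9.24 and 9.46 in 129 at E17.5. Again no later array reached any array of E13.5. Unlike on the brightest probe set, its E17.5 arrays lay above its E15.5 arrays in both strains, with E17.5 minus E15.5 of 0.10 in M19 (adjusted p = 0.72) and 0.20 in 129 (adjusted p = 0.53), neither called. Its E15.5 minus E13.5 difference was -0.64 in M19 (adjusted p = 0.0073) and -0.96 in 129 (adjusted p = 0.00055). E17.5 minus E13.5 was -0.54 in M19 (adjusted p = 0.012) and -0.77 in 129 (adjusted p = 0.0018). The differences in 129 without its E13.5 replicate 1 were -0.90 at E15.5 and -0.71 at E17.5, both called. In order of group mean, Upk3b was highest in 129 at E13.5 (10.54 ± 0.01, SD, n = 2), followed by M19 at E13.5 (10.41 ± 0.01). The means of the other 4 groups ran from 9.5 to 9.64, and neighbours among them overlapped.

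Upk1b, the tetraspanin partner, gave different answers on its 4 probe sets. On the brightest, 1457065_at, it read 8.96 and 9.06 in M19 and 9.21 and 8.95 in 129 at E13.5, 8.78 and 8.81 in M19 and 9.02 and 9.07 in 129 at E15.5, and 8.87 and 8.68 in M19 and 8.94 and 8.93 in 129 at E17.5. The M19 arrays of both later stages lay below those of E13.5, and in 129 the arrays of E15.5 and E13.5 overlapped. E15.5 minus E13.5 was -0.22 in M19 (95% interval -0.49 to 0.05) and -0.03 in 129 (-0.3 to 0.24). E17.5 minus E13.5 was -0.23 in M19 (-0.51 to 0.04) and -0.14 in 129 (-0.41 to 0.13). None of these passed the test. Without 129 E13.5 replicate 1, the differences in 129 were 0.10 at E15.5 and -0.01 at E17.5, and neither was called.

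On 1439760_x_at, whose mean over the arrays was 8.92, close to the 8.94 of the brightest, Upk1b was lower at E17.5 than at E13.5 in both strains. It read 9.41 and 9.38 in M19 and 9.31 and 9.46 in 129 at E13.5, 8.84 and 8.60 in M19 and 8.97 and 9.27 in 129 at E15.5, and 8.28 and 8.64 in M19 and 8.51 and 8.33 in 129 at E17.5. No later array reached the arrays of E13.5 in its own strain. E17.5 minus E13.5 was -0.94 in M19 (SE 0.16, adjusted p = 0.0035) and -0.97 in 129 (SE 0.16, adjusted p = 0.0032). E15.5 minus E13.5 was -0.68 in M19 (adjusted p = 0.032) and -0.26 in 129 (adjusted p = 0.52). The strain by stage interaction, which tests both successive steps together, gave an adjusted p of 1.0. The early difference in M19 minus that in 129 was -0.41 (95% interval -0.91 to 0.08, unadjusted p = 0.094 by limma). The span difference in 129 without its E13.5 replicate 1 was -1.04 (adjusted p = 0.0093).

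The dimmer 1455464_x_at was also lower over the whole span, with a difference of -0.38 in M19 (adjusted p = 0.039) and -0.42 in 129 (adjusted p = 0.034). In 129 it was -0.38 without E13.5 replicate 1, with an adjusted p of 0.079, which ends that call. Its E15.5 arrays were 7.82 and 7.74 in M19, against 8.16 and 8.26 in 129, and its E13.5 arrays were 8.24 and 8.29 in M19, against 8.26 and 8.18 in 129. The fall at E15.5 was called in M19 (-0.49, adjusted p = 0.02), and the difference in 129 was 0.00 (adjusted p = 0.99). The early difference in M19 minus that in 129 was -0.48 by limma (unadjusted p = 0.0079, adjusted p = 0.79), without a call. The dimmest, 1435831_at, was not called, at -0.36 in M19 and -0.29 in 129 over the span. All 4 probe sets had a negative span difference in both strains, and 2 of the 4 passed the test. The suffix x marks probe sets whose probes can also match other transcripts, and both called Upk1b probe sets carry it. The brightest Upk3b probe set, 1454881_s_at, carries the suffix s, and whether its probes match other transcripts was not tested. The second Upk3b probe set, 1434237_at, carries neither suffix. Of the 11 probe sets of the 4 genes, 4 were called at the early step in M19 and 2 in 129, and 5 in each strain over the span. Among all probe sets, 5.46% were called at the early step in M19 and 4.6% in 129, and 12.3% over the span in M19 and 8.26% in 129.

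Msln, the mesothelin gene, did not pass the test in any comparison. Its probe set read 8.09 and 8.01 in M19 and 8.31 and 7.99 in 129 at E13.5, 7.85 and 8.21 in M19 and 8.07 and 8.02 in 129 at E15.5, and 8.39 and 8.15 in M19 and 8.17 and 8.33 in 129 at E17.5. The arrays of neighbouring groups overlapped along the whole order of group means, which ran from 8.03 to 8.27. E17.5 minus E13.5 was 0.22 in M19 (95% interval -0.13 to 0.56) and 0.10 in 129 (-0.25 to 0.44). Leaving out 129 E13.5 replicate 1 gave 0.05 at E15.5 and 0.26 at E17.5 in 129, and neither was called. Its mean of 8.13 lies close to 8.17, the median of all probe set means, and no detection call was used, so whether the gene was expressed was not tested.

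Lhx9, the gonadal transcription factor, did not fall with Upk3b. It read 11.10 and 11.07 in M19 and 11.39 and 11.09 in 129 at E13.5, 11.39 and 11.43 in M19 and 11.32 and 11.59 in 129 at E15.5, and 11.36 and 11.53 in M19 and 11.55 and 11.45 in 129 at E17.5. In M19 all later arrays lay above those of E13.5, whereas in 129 the arrays of E15.5 and E13.5 overlapped. E15.5 minus E13.5 was 0.33 in M19 (95% interval 0.02 to 0.63, adjusted p = 0.28) and 0.21 in 129 (-0.1 to 0.52, adjusted p = 0.56), so neither was called. E17.5 minus E13.5 was 0.36 in M19 (adjusted p = 0.12) and 0.25 in 129 (adjusted p = 0.34). Without 129 E13.5 replicate 1, the differences in 129 were 0.36 at E15.5 (adjusted p = 0.21) and 0.41 at E17.5 (adjusted p = 0.11). The group means ran from 11.08 in M19 at E13.5 to 11.5 in 129 at E17.5, and the arrays of all neighbours in that order overlapped.

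The other Lhx9 probe sets were all higher at E17.5 than at E13.5 in group mean, and 1 of them passed the test. This was 1431598_a_at, which read 8.90 and 8.78 in M19 and 9.13 and 8.81 in 129 at E13.5, 9.27 and 9.18 in M19 and 9.19 and 9.21 in 129 at E15.5, and 9.32 and 9.41 in M19 and 9.43 and 9.46 in 129 at E17.5. The arrays of E17.5 lay above all arrays of both earlier stages. E17.5 minus E13.5 was 0.52 in M19 (SE 0.13, adjusted p = 0.021) and 0.48 in 129 (SE 0.13, adjusted p = 0.041), or 0.64 in 129 without E13.5 replicate 1 (adjusted p = 0.011). On 1429905_at the span difference was 0.48 in M19 (adjusted p = 0.16) and 0.66 in 129 (adjusted p = 0.083). On 1441313_x_at it was 0.33 in M19 (adjusted p = 0.46) and 0.77 in 129 (adjusted p = 0.13).

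**Figure D2:**
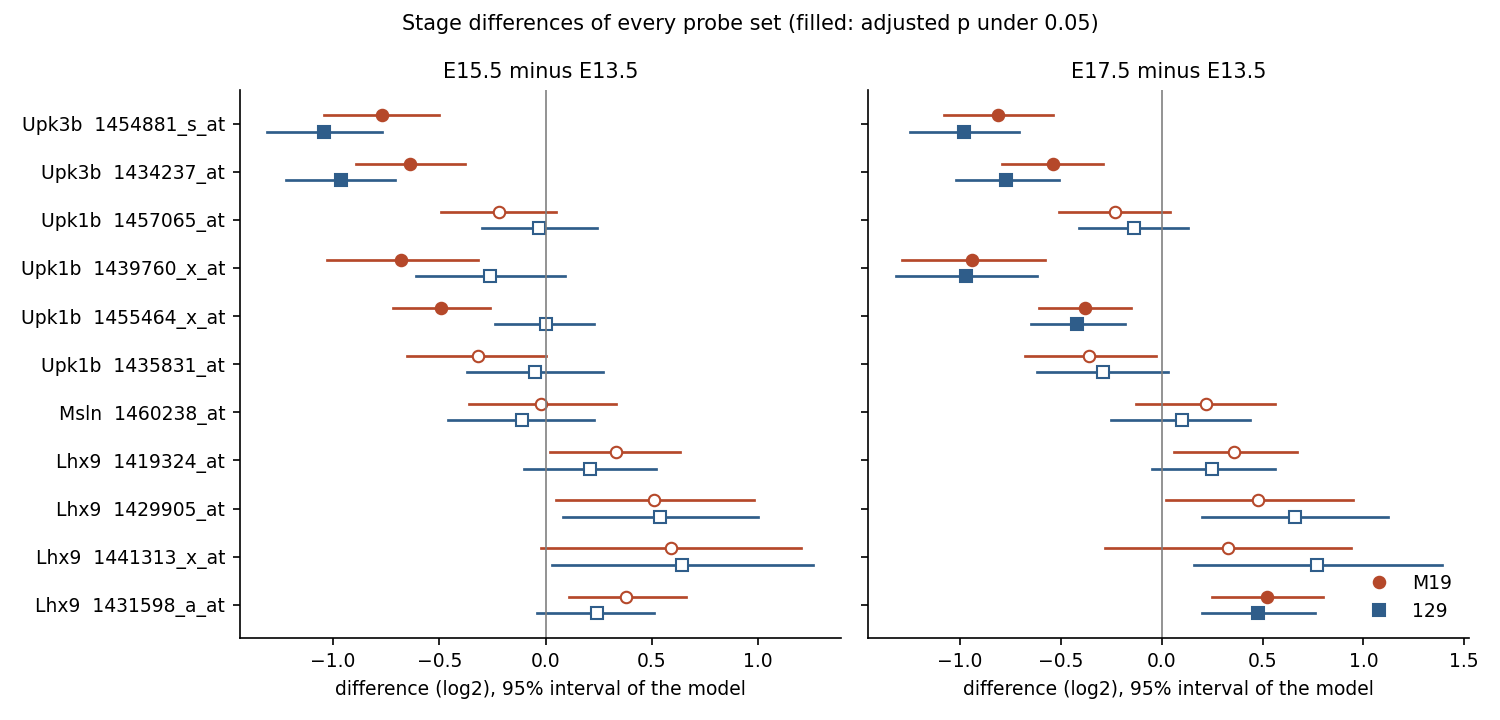
Difference of the later stage minus E13.5 (horizontal axis, log2, with the 95% interval of the model) for all 11 probe sets, at E15.5 on the left and E17.5 on the right, with M19 as circles above 129 as squares and filled symbols for an adjusted p under 0.05. Both Upk3b probe sets lie below 0 in every panel, those of Msln and of the brightest Lhx9 are open, and the filled Upk1b symbols belong to its x probe sets.

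None of the 4 genes differed between the strains at any stage by limma. M19 minus 129 of Upk3b was -0.13 at E13.5 (95% interval -0.4 to 0.14), 0.14 at E15.5 (-0.13 to 0.41) and 0.04 at E17.5 (-0.24 to 0.31). For Upk1b it was -0.07 at E13.5, -0.25 at E15.5 and -0.16 at E17.5, with intervals that together span -0.53 to 0.20. For Msln it was -0.10, -0.01 and 0.02 at the 3 stages, between bounds of -0.45 and 0.36. For Lhx9 it was -0.16, -0.04 and -0.05, between bounds of -0.47 and 0.26. These intervals rest on the spread between arrays of the same group. If such arrays share pooled RNA, the intervals leave out the spread between embryos and may be too narrow. How large a strain difference between embryos remains possible was therefore not tested. Over the 12 fits that each left out 1 array, M19 minus 129 at E13.5 ran from -0.20 to 0.06 for Upk1b, from -0.26 to 0.06 for Msln and from -0.31 to -0.01 for Lhx9, and the highest value of each came without 129 E13.5 replicate 1. None of the 4 genes was called between the strains in any of these fits.

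Averaged over the 3 stages, M19 minus 129 was -0.16 for Upk1b (unadjusted p = 0.045, adjusted p = 1.0), and it was the 1 member with an unadjusted p under 0.05. The lowest adjusted p of the 11 probe sets was 0.159, for 1455464_x_at of Upk1b at E15.5 (-0.44). There the M19 arrays, 7.82 and 7.74, lay below the 129 arrays, 8.16 and 8.26. Among all genes, limma called 0.0333% between the strains at E13.5, 0.688% at E15.5, 0.0943% at E17.5 and 0.466% over the 3 stages. The strain by stage interaction called 0.205% of all genes and none of the 4 (lowest adjusted p 1.0, no gene at an unadjusted p under 0.05). The genes lie on chromosomes 5, 16, 17 and 1, and chromosome 19 is the substituted one.

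**Figure D3:**
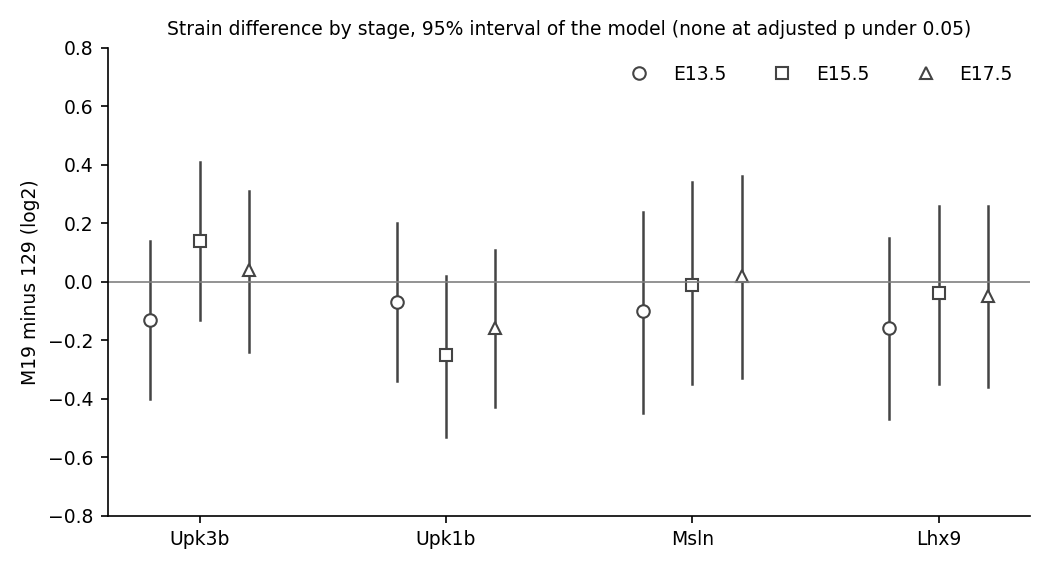
M19 minus 129 (vertical axis, log2) for Upk3b, Upk1b, Msln and Lhx9 at E13.5, E15.5 and E17.5, with the 95% interval of the model. All 12 differences lie between -0.25 and 0.14, every interval includes 0, and no symbol passed the test.

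Upk3b was set beside 18 genes used as markers of mesothelium and coelomic epithelium, all of them measured. At E15.5 against E13.5, 6 of the 18 were lower and 1 higher in M19, and 8 were lower and 2 higher in 129. The median difference of the 18 was -0.44 in M19, where that of all genes was 0.05, and -0.40 in 129, where that of all genes was -0.03. Krt18, Krt8, Krt7, Podxl and Wt1 were lower in both strains. Without M19 E13.5 replicate 1, 3 genes were lower in M19, and without 129 E15.5 replicate 1, 4 were lower in 129.

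Krt18, a keratin of simple epithelia, had the lowest early difference of the list in both strains, with 8.86 and 8.70 in M19 at E15.5, against 10.73 and 10.63 in M19 at E13.5. In 129 it had 8.88 and 9.04 at E15.5, against 10.77 and 10.71 at E13.5. The early difference was -1.90 in M19 and -1.78 in 129, and no arrays of the stages overlapped. Its pairing partner Krt8 differed by -0.68 in M19 and -0.76 in 129, and Krt7, another simple-epithelial keratin, by -0.88 in M19 and -0.72 in 129. Podxl, a sialomucin of epithelia and vessels, differed by -0.88 in M19 and -0.90 in 129. Wt1, a zinc finger factor of coelomic epithelium and Sertoli cells, differed by -0.48 in M19 and -0.59 in 129. Krt19 was lower in M19 (-0.69). Lower in 129 were Bnc1, a zinc finger factor of mesothelium (-0.93), Aldh1a2, which makes retinoic acid (-0.86), and Lrrn4 (-0.69, adjusted p = 0.038). Leaving out 129 E13.5 replicate 1, the Lrrn4 difference in 129 was -0.79 with an adjusted p of 0.052, which ends that call. These 4 calls were each made in one strain, and the strain by stage interaction called none of them.

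Not all of the list followed. Pdpn, podoplanin, was higher at E15.5 in both strains, by 0.69 in M19 and 0.75 in 129. Without any 1 of the 4 M19 arrays of E13.5 and E15.5, 0 genes of the list were called higher in M19 by limma, and without 129 E15.5 replicate 2, 1 was higher in 129. Muc16, which encodes the mucin that mesothelin binds, differed by -0.41 in M19 (adjusted p = 0.081) and -0.34 in 129 (adjusted p = 0.16), without a call. Between E15.5 and E17.5, Krt18 (0.83) and Krt8 (0.58) were higher in M19, a step at which Upk3b showed no call. Igfbp6, which binds insulin-like growth factors, was higher at that step in both strains, by 1.15 in M19 and 1.39 in 129. Over the span from E13.5 to E17.5, 6 genes were lower and 3 higher in M19, and 7 were lower and 3 higher in 129. Aldh1a2, Bnc1, Krt18, Krt7, Podxl and Wt1 were lower in both strains. Without 129 E17.5 replicate 1, 4 genes were lower in 129 over that span.

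**Figure D4:**
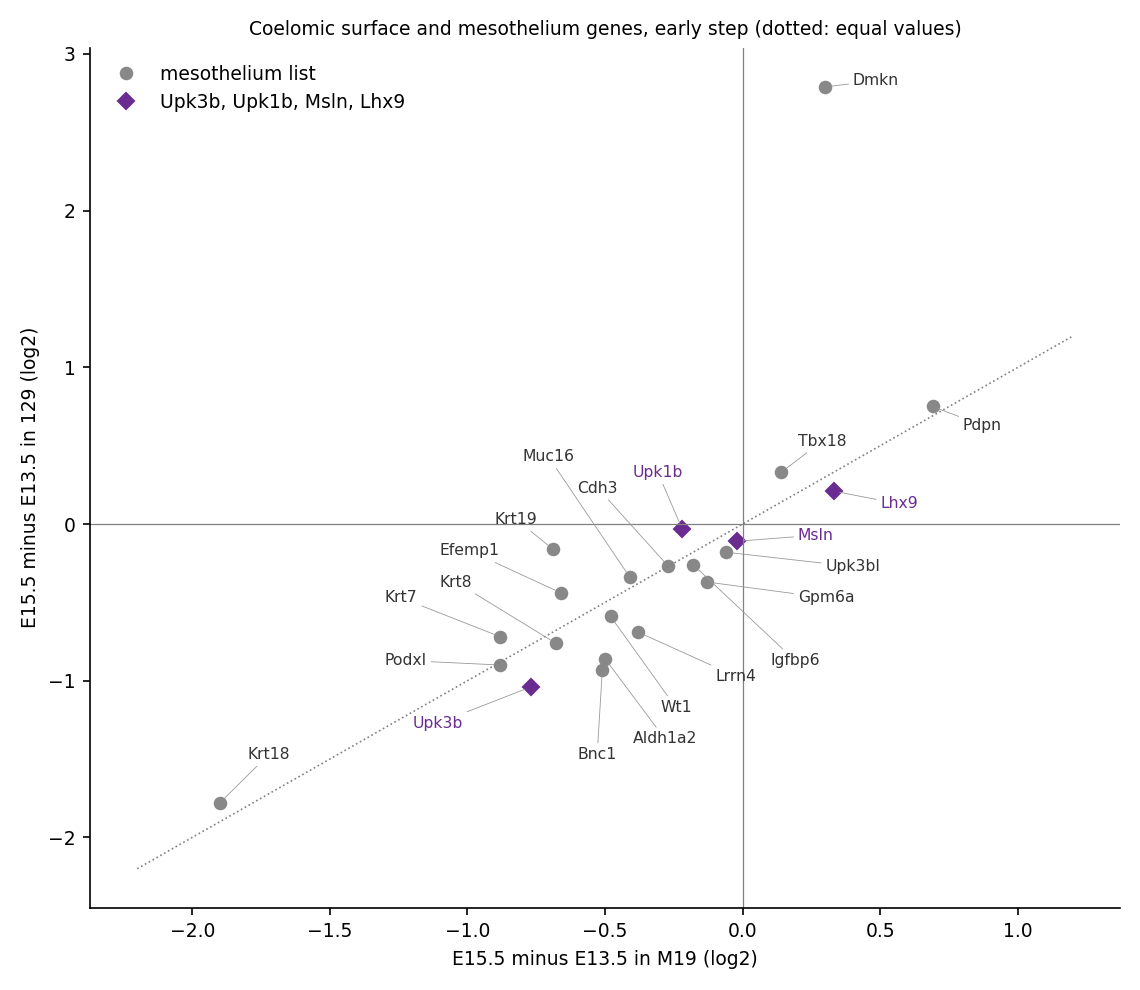
E15.5 minus E13.5 in M19 (horizontal axis, log2) and in 129 (vertical axis, log2) for Upk3b, Upk1b, Msln and Lhx9 (diamonds) and the 18 mesothelium genes (circles), with a dotted line of equal values. Upk3b lies at -0.77 and -1.04 among Podxl, Krt7, Krt8 and Bnc1, Lhx9 at 0.33 and 0.21, Upk1b at -0.22 and -0.03, Msln at -0.02 and -0.11, and Dmkn lies at 0.30 in M19 and 2.79 in 129.

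Dmkn, which encodes the epidermal protein dermokine, was the 1 gene of the 18 that differed between the strains. At E15.5 it had 7.13 and 7.01 in M19, against 9.27 and 9.63 in 129, a difference of -2.38 (adjusted p = 1.5e-05). In 129, E15.5 minus E13.5 was 2.79 and E17.5 minus E15.5 was -1.17. At E15.5, 7 of 7 skin markers were also lower in M19 than in 129, with differences from -4.05 for Perp to -1.19 for Sbsn. Dmkn was also higher where those arrays were not used. Over the span it differed by 1.43 in M19 and 1.62 in 129, and at the later step by 1.13 in M19. In each of these comparisons Perp was the 1 skin gene of 7 that was called, at 1.42 in M19 and 1.47 in 129 over the span and 1.36 in M19 at the later step. The part of the skin markers in the Dmkn results was not tested. On the E15.5 arrays, Upk3b had 9.69 and 9.60 in M19 and 9.40 and 9.61 in 129. Whether the skin signal on the 129 E15.5 arrays bears on these Upk3b values was not tested.

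Of 9 measured marker genes of the mesonephros and its ducts, 4 were lower at E15.5 than at E13.5 in each strain and none higher. Cdh16, a kidney cadherin, had 7.69 and 7.89 in M19 at E15.5, against 9.67 and 9.64 in M19 at E13.5. It had 7.96 and 7.71 in 129 at E15.5, against 9.96 and 9.88 in 129 at E13.5. The early difference of Cdh16 was -1.87 in M19 and -2.08 in 129. Calb1, a calcium-binding protein of the ducts, differed by -2.69 in M19 and -1.27 in 129. Gata3, a factor of the mesonephric duct, differed by -1.96 in M19 and -0.89 in 129, and Cdh1, E-cadherin, by -0.86 in M19 and -0.93 in 129. The other 5 genes, Epcam, Lhx1, Pax8, Ret and Wnt9b, were not called, with differences from -0.31 to 0.18 in M19 and from -0.47 to 0.01 in 129. Between E15.5 and E17.5, where Upk3b had no call, Cdh1 was lower again in both strains (-1.51 in M19, -2.74 in 129) and Gata3 in 129 (-1.01). The summed linear signal of the 9 genes was 3452 to 3491 in M19 and 3424 to 3659 in 129 at E15.5, against 5249 to 5392 in M19 and 5317 to 5797 in 129 at E13.5. None of them was listed at 0. Endothelial markers summed to 5020 to 5317 in M19 and 4695 to 5245 in 129 at E15.5, against 6448 to 6639 in M19 and 6334 to 6812 in 129 at E13.5, with 1 of 6 genes, Kdr, lower in each strain. Fetal Leydig cell markers summed to 31251 to 31779 in M19 and 28756 to 29693 in 129 at E15.5, against 8868 to 8941 in M19 and 11011 to 11078 in 129 at E13.5, and 5 of 5 measured genes were higher in each strain. Sertoli cell markers summed to 27373 to 27710 in M19 and 23662 to 26649 in 129 at E15.5, against 20858 to 20867 in M19 and 20409 to 23224 in 129 at E13.5. Of these 8 genes, Ptgds was higher and Fgf9 lower in each strain. The part of these cell types in the Upk3b result was not tested.

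Read by its brightest probe set, Upk1b was not called in any stage comparison. The other uroplakin genes measured, Upk1a, Upk2, Upk3a and Upk3bl, read in the same way, passed the test in none. They had early differences from -0.06 to 0.14 in M19 and from -0.18 to 0.12 in 129. Upk2, a uroplakin that pairs with UPK1A, read 10.31 and 10.37 in M19 at E15.5, against 10.42 and 10.30 in M19 at E13.5. In 129 it read 10.41 and 10.37 at E15.5, against 10.43 and 10.12 at E13.5, so the stages overlapped in both strains. Upk3bl lies next to Upk3b on chromosome 5, with 0 annotated genes between them in RefSeq. Its early difference was -0.06 in M19 (95% interval -0.39 to 0.27) and -0.18 in 129 (-0.51 to 0.15), where that of Upk3b was -0.77 in M19 and -1.04 in 129. Among 10 urothelium genes, Foxa1, a forkhead factor, was higher at E15.5 in both strains (1.13 in M19, 1.16 in 129), and Krt5, which is also a skin gene, was higher in 129 (2.78). None was lower.

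Of 10 measured transcription factors of the gonadal ridge, 2 were lower and 2 higher at E15.5 than at E13.5 in each strain. Emx2, a homeobox factor needed for growth of the ridge, had 9.69 and 9.71 in M19 at E15.5, against 10.79 and 10.65 in M19 at E13.5. In 129 it had 9.50 and 9.70 at E15.5, against 10.58 and 10.60 at E13.5. The difference was -1.01 in M19 and -1.0 in 129, and over the span it was -1.88 in M19 and -2.02 in 129. Wt1 was the other gene lower in both strains. Nr5a1, the steroidogenic factor that acts downstream of LHX9 in the mouse ridge, was higher by 0.74 in M19 and 0.51 in 129, and Lhx2, the closest relative of Lhx9, by 0.99 in M19 and 1.23 in 129. The single arrays of Lhx2 ran from 5.99 to 7.59, so this is a difference between low signals. In 129, Lhx2 was lower at E17.5 than at E15.5 (-0.75, adjusted p = 0.0066), and over the span it was higher by 0.76 in M19 and 0.47 in 129 (adjusted p = 0.026 in 129). The late step in M19 was -0.22, without a call. M19 minus 129 of Lhx2 at E15.5 was -0.52 by limma (adjusted p = 0.098), also without a call. Both steps of Lhx2 in 129 use the E15.5 arrays that carried skin markers, and the part of skin was not tested. Without 129 E13.5 replicate 1, the span difference of Lhx2 in 129 was 0.43 with an adjusted p of 0.07 and the early difference of Nr5a1 in 129 was 0.49 with an adjusted p of 0.064, which ends both calls. At the early step, 1 factor was lower in M19 without any 1 of the M19 arrays of E13.5 or E15.5 or of the 129 arrays of E17.5, and 1 was lower in 129 without either 129 E15.5 array. In 129, 1 factor was higher without 129 E13.5 replicate 1, 129 E15.5 replicate 2 or either M19 E13.5 array. Between E15.5 and E17.5, Emx2 was lower in both strains (-0.86 in M19, -1.03 in 129). At that step in M19, Cbx2 was lower (-0.56) and Osr1 higher (1.18). Over the span, 5 factors were higher and 4 lower in M19, and 5 were higher and 2 lower in 129. Gata4, Lhx2, Nr5a1, Osr1 and Tcf21 were higher and Emx2 and Wt1 lower in both strains. Cbx2 (-0.49) and Zfpm2 (-0.65) were called lower in M19 only. Without either of the 129 E17.5 arrays 3 were higher in 129, and without M19 E13.5 replicate 2, 3 were higher in M19.

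Among 21 LIM homeobox genes and cofactors, Lhx2 was the 1 gene called at the early step in either strain. Over the span, Lmo2 (-0.53 in M19, -0.50 in 129) and Ssbp3 (-0.69 in M19, -0.75 in 129), which take part in LIM protein complexes, were lower in both strains. Isl1, Lhx4 and Lmo4 were higher in M19. The median span difference of the 21 genes was 0.19 in M19 and 0.01 in 129, where that of all genes was 0.10 in M19 and 0.01 in 129.

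Genes whose signal followed each member most closely over the 12 arrays were sought by Pearson's r among 12038 genes with a mean above the median of all probe sets. The arrays share stages and strains, so these values are a description. Ecm1 (0.983), Ano1 (0.983), Emcn (0.981), Gata2 (0.981) and Ckb (0.975) followed Upk3b. Wnt5b (0.91), Col9a2 (0.866), Pnmt (0.865), Cdkn2aipnl (0.857) and Rab3il1 (0.853) followed the brightest Upk1b probe set. Mcu (0.958), 1700030K09Rik (0.948), Wdfy2 (0.943), Slc5a5 (0.937) and Dhx34 (0.93) followed Msln. Lhx9 was followed by 1700019A02Rik (0.961), Rab33a (0.947), Sh3gl2 (0.939), Stk10 (0.937) and Mon2 (0.934). No gene was among the 5 of more than 1 member. On the brightest probe sets, Upk3b was called lower at the later stages, and Upk1b, Msln and Lhx9 were not called. Every Upk1b probe set had a negative span difference in both strains, and the called Lhx9 probe set, its dimmest, was higher. A missing call does not show a different course, and whether the genes share a course was not tested.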

How the data were processed

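Total RNA of 6 groups was hybridised to 12 Affymetrix whole-genome mouse arrays, 2 per group. The deposited values, read here as log2 signal, hold 1 number for each of 45101 probe sets. The authors' summary method, normalization and log base are not given in the sources used here. Values run from 0 to 15.03 and array medians from 8.10 to 8.27. Precision is limited by the number of arrays. The 64 control probe sets were left out. Of the 45037 others, 34945 carry 1 gene, 932 several and 9160 none. RefSeq GRCm38.p6 matched 34741 probe sets and gave 18032 genes.

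Group means were fitted with limma 3.58.1 in R 4.3.3 with eBayes (6 residual and 4.82 prior degrees of freedom) and Benjamini-Hochberg adjustment over all probe sets, and a probe set was called at an adjusted p under 0.05. All tests are two-sided, and each difference is M19 minus 129 or the later minus the earlier stage. Lists were read by each gene's brightest probe set. The 4 genes, the lists and the naming rule were chosen with earlier results of these data known. The rule names the 4 genes, called list genes (at most 8 by size per list and comparison, or 3 by brightness where none was called) and the 5 genes with the highest r per member. Muc16 and Upk3a fall outside it and were named after their values were seen. The uncalled mesonephros genes Epcam, Lhx1, Pax8, Ret and Wnt9b also fall outside it. Sox9 and Foxl2 were named as cell type markers with their levels. The fit was tested on simulated data. Python 3.11.15, pandas 2.3.3 and matplotlib 3.10.9 served for annotation and plots. Alternatives were other normalizations, filters, variance models, probe set choices, sets of arrays and a replicate block.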

Additional observations from a re-analysis of the deposited data

Results flagged for a closer look

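The strain difference of Upk1b probe set 1455464_x_at changed sign between stages without overlap of the arrays. M19 minus 129 was 0.08 at E17.5 and -0.44 at E15.5, and the strain by stage interaction had an adjusted p of 0.83. The same probe set moved in opposite directions from E15.5 to E17.5, by 0.11 in M19 and -0.41 in 129, and neither step was called (adjusted p = 0.65 in M19 and 0.093 in 129).

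For Upk3b probe set 1434237_at, both M19 arrays lay above both 129 arrays at E15.5 (0.15) and below them at E13.5 (-0.17). The interaction had an adjusted p of 1.0. The share of all probe sets with such a change of sign was not counted, for this or for the Upk1b probe set. How common the pattern is without any strain effect is therefore not known.

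The strain by stage interaction called Dmkn with an adjusted p of 0.00051, with M19 minus 129 of -2.38 at E15.5, 0.11 at E13.5 and -0.08 at E17.5. The skin markers had high signal on the same 129 E15.5 arrays, and their part in this result was not tested.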

How the results depend on the processing

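Of 806 alternative values of the 4 genes' differences, 795 gave the same call, 2 lost it, 9 gained it and 0 reversed, and 42 uncalled values had the other sign. Upk3b lost its early call in M19 without M19 E13.5 replicate 2 (range over 12 fits, each without 1 array, -0.81 to -0.73, adjusted p up to 0.051, called in 11) and in 129 with only the arrays compared (-1.04, adjusted p = 0.054). In those 12 fits the early difference in 129 was -1.15 to -0.94 and was called in all 12. Upk1b was called by its next brightest probe set at the early step in M19 (-0.68, adjusted p = 0.032) and over the span (-0.94, adjusted p = 0.0035, in M19; -0.97, adjusted p = 0.0032, in 129), and by the mean of its probe sets (-0.43, adjusted p = 0.021; -0.48, adjusted p = 0.0076; -0.46, adjusted p = 0.011). Lhx9 was called in M19 under array weights (0.33 at the early step, adjusted p = 0.036; 0.36 over the span, adjusted p = 0.022) and in 129 by the mean of its probe sets (0.54 over the span, adjusted p = 0.029). Array weights thus called 2 members in M19 at the early step and 2 over the span, and the compared arrays alone called 0 at the early step in 129. Both arrays of a group received the same weight, such as 0.353 for 129 E13.5 and 2.77 for M19 E13.5. Such weights rescale whole groups and do not single out 129 E13.5 replicate 1. Leaving out 1 array gave 0 to 1 members at the early step in M19.

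Counts of all called probe sets moved with the setting. With only the arrays compared they were 0 between the strains at E13.5 (731 at an unadjusted p under 0.05), 5549 at the early step in M19, 443 in 129, 429 at the late step in 129, and 8833 in M19 and 1326 in 129 over the span. Array weights gave 6429 in M19 and 785 in 129 at the early step, 2196 in M19 at the late step, and 12154 in M19 and 1745 in 129 over the span. Without dim probe sets they were 150 between the strains at E15.5, 22 at E17.5, 120 over the 3 stages and 23 in the interaction. Leaving out 1 array gave 8 to 32, 84 to 351 and 14 to 52 between the strains at E13.5, E15.5 and E17.5, 92 to 251 over the 3 stages, 938 to 3242 in M19 and 1230 to 2739 in 129 at the early step, 173 to 1896 in M19 and 218 to 1277 in 129 at the late step, 1696 to 8313 in M19 and 1857 to 4658 in 129 over the span, and 27 to 90 in the interaction.

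The list alternatives were chosen after seeing the data. Mesothelium genes lower at the early step were 11 in M19 under array weights and 11 with only the arrays compared, and 5 and 1 in 129. Over the span 4 were lower in 129 under either setting. Higher at the early step in 129 was 1 gene under array weights, without dim probe sets and with only the arrays compared. Leaving out 1 array gave 3 to 7 lower in M19 and 4 to 8 in 129 at the early step, 4 to 6 in M19 and 4 to 7 in 129 over the span, and 0 to 1 higher in M19 and 1 to 2 in 129 at the early step. Gonadal ridge factors lower at the early step in 129 were 1 under array weights and 0 with only the arrays compared, and 1 and 1 over the span. Higher at the early step was 1 under array weights, without dim probe sets and with only the arrays compared, and over the span 3 under array weights and 1 with only the arrays compared. Leaving out 1 array gave 1 to 2 lower in each strain and 2 to 3 higher in M19 and 1 to 2 in 129 at the early step, and 1 to 4 lower in M19, 1 to 3 lower in 129 and 3 to 5 higher in each strain over the span.

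Same-numbered arrays of 2 groups correlated, in their deviations from the group means, at -0.373 to 0.539. The highest values, 0.505 to 0.539, were those among 129 E13.5, 129 E15.5 and M19 E17.5. Such values cannot show that the samples were unpaired, and a technical factor shared by groups was not tested. With a replicate block, Upk3b kept -0.77 in M19 (adjusted p = 0.0043) and -1.04 in 129 (adjusted p = 0.0007), 2492 probe sets were called at the early step in M19 and 2055 in 129, and no member's call changed. Signal over background was not used here, so low signals such as Lhx2 and Msln carry no detection call. The causes of these shifts were not tested.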
